A study of Homo sapiens with 12 samples.

Results

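The ribosome biogenesis genes described here are 42 listed human genes that encode nucleolar processing factors, RNA polymerase I subunits and regulators of RNA polymerase I. They were found by symbol in the table of array values, and the row with the highest mean over all 12 arrays was taken for each gene. A row of their own was found for 38 of the 42 genes, among 22395 named genes in all. NOP56, DKC1 and PPAN lay on rows shared with other genes and were not valued, and GNL3 had no row in the annotation used here. Of the 38 genes, 34 had a mean of at least 5 on the log2 scale and were tested, among 5820 tested genes. The 4 below that level were NPM1, GAR1, POLR1B and POLR1C.

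The cells were NCI-H1975, a human lung adenocarcinoma line whose EGFR carries the L858R and T790M changes, and this genotype was the same in every group. Erlotinib is an inhibitor of the EGFR tyrosine kinase, and quinacrine is an acridine compound long used against malaria. The combination group (1 µM erlotinib with 3 µM quinacrine) had 4 arrays, at 6, 12, 24 and 48 h. The quinacrine group (3 µM) had 3 arrays, at 6, 12 and 24 h, the erlotinib group (1 µM) had 4 arrays, at 6, 12, 24 and 48 h, and 1 array was of untreated cells with no time in its label. Each treatment and time had 1 array, so n counts time points. The labels do not say that the arrays came from separate cultures, so a p-value here does not measure spread between cultures. Between treated groups, its error is the departure of the arrays from additive effects of treatment and time. For slopes, it is the departure from a straight line on log2 time. Such an error mixes array noise with any treatment effect that changes over time or any bend of a time course.

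Ribosomes are built mainly in the nucleolus, where RNA polymerase I copies the ribosomal RNA genes into a long precursor. Small nucleolar ribonucleoproteins of the box C/D and box H/ACA classes modify that precursor, and separate sets of factors fold and cut it into the RNAs of the small and the large subunit. Growth signals, among them those that pass through receptor kinases and the transcription factor MYC, are known to raise the transcription of these genes.

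The array medians over the tested genes lay between 6.385 and 6.56, except for the combination 6 h array at 6.18. That array also had the lowest median correlation with the others, 0.955, against up to 0.981 for the rest. The erlotinib 12 h array had the next lowest, 0.968. These arrays also had the smallest spread, with an interquartile range over all rows of 2.04 at 6 h of the combination and 2.26 at 12 h of erlotinib. The other arrays had 2.38 to 2.88. Against the filter level of 5, the rows of the epithelial markers EPCAM (mean level 8.54) and CDH1 (10.3) and of the lung lineage marker NKX2-1 (6.12) lay above it, while those of KRT8 (2.81) and of the lung lineage markers NAPSA (2.87) and SFTPB (1.65) lay below it. Markers of leukocytes, fibroblasts and endothelium with a row averaged 0.889 to 2.76. The arrays read RNA of whole cultures, so fewer cells of a kind and less RNA per cell cannot be told apart.

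Only small differences separated most ribosome biogenesis genes between treatments. BOP1 was the exception, with levels that were lower in both quinacrine-containing groups than in the erlotinib group from 12 h on. A second pattern was small and wide: at 48 h of erlotinib, 33 of the 34 tested genes lay below their untreated level. Of all 5820 tested genes, 40.9% did, and this is 1 array against 1 array, with no test. The map of differences from untreated cells gives all 38 genes with a row of their own.

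**Figure D1:**
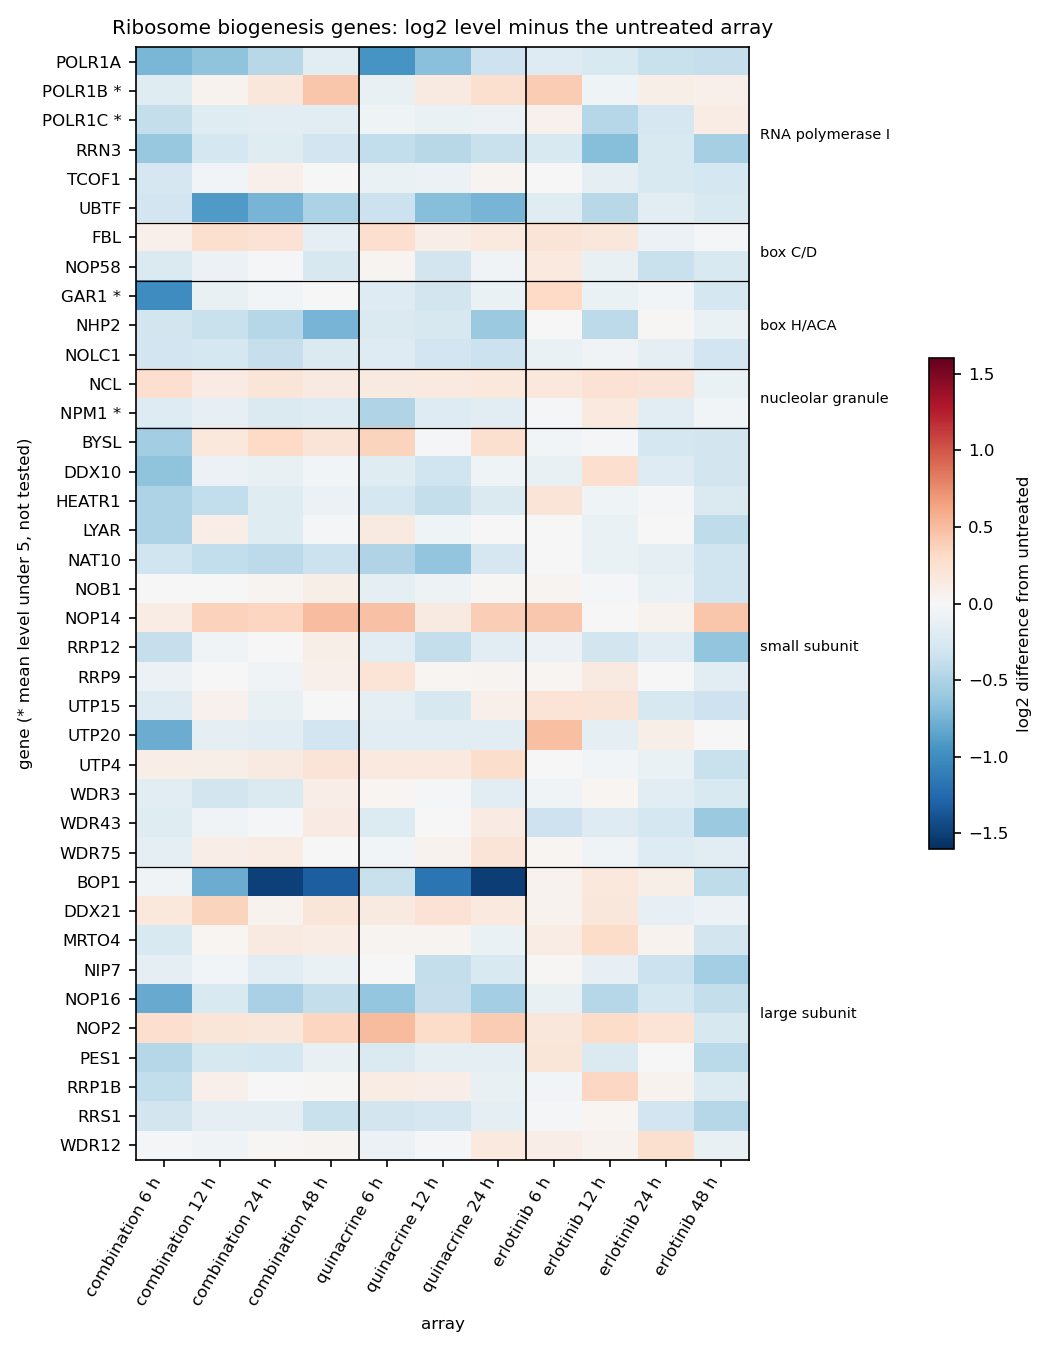
Difference of each array from the untreated array (log2 scale, colour) for the 38 ribosome biogenesis genes (rows, by role, with an asterisk on the 4 not tested) on the treated arrays (columns, by treatment and time). BOP1 is the darkest row, reaching -1.49 at 24 h of the combination and -1.51 at 24 h of quinacrine. In the erlotinib 48 h column every tested row but that of NOP14 is below 0, against 40.9% of all tested genes.

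BOP1 encodes a large-subunit assembly factor that works with PES1 and WDR12 in the PeBoW complex, which is needed to process the precursor of the large subunit's RNAs. Its log2 level was 7.88, 7.15, 6.45 and 6.62 at 6, 12, 24 and 48 h of the combination, 7.59, 6.77 and 6.43 at 6, 12 and 24 h of quinacrine, 8.0, 8.11, 8.04 and 7.53 at 6, 12, 24 and 48 h of erlotinib, and 7.94 in untreated cells. The 3 later combination arrays and the 2 later quinacrine arrays lay below every erlotinib array, while the combination 6 h array lay within the erlotinib range. The mean was 7.03 ± 0.64 in the combination (SD, n = 4), 6.93 ± 0.60 in quinacrine (SD, n = 3) and 7.92 ± 0.26 in erlotinib (SD, n = 4).

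With treatment and time as factors over the 11 treated arrays, BOP1 differed by -0.90 between the combination and erlotinib (SE 0.21, 1.86-fold lower, 95% interval -1.37 to -0.42), with a limma Benjamini-Hochberg adjusted p of 0.0587. Between quinacrine and erlotinib it differed by -1.12 (SE 0.24, 2.18-fold lower), with a limma adjusted p of 0.0620. Both values missed the threshold of 0.05. Over the alternative settings the limma adjusted p ran between 0.00808 and 0.203 for the combination and between 0.00293 and 0.304 for quinacrine. Without the erlotinib 6 h array both differences of BOP1 passed, at 0.00808 and 0.0055, and without the combination 6 h array both passed as well, at 0.0349 and 0.0314.

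Within the combination, BOP1 fell by 0.448 on the log2 scale with each doubling of time (SE 0.10, 1.36-fold, limma adjusted p = 0.0451). It was the 1 member of 34 that passed in that comparison, where 4.97% of all tested genes passed and 0.258% passed with a fall. That call was lost in 15 of 21 alternative settings, and without the combination 6 h array the slope of BOP1 was -0.27 (limma adjusted p = 0.584). The BOP1 slope was -0.58 in quinacrine (SE 0.16, limma adjusted p = 0.244) and -0.15 in erlotinib (SE 0.10, limma adjusted p = 0.801). The difference of the BOP1 slopes, combination minus erlotinib, was -0.30 (SE 0.15, limma adjusted p = 0.369) and did not pass.

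BOP1 had a second row, whose level was below 5 on every array. It read 3.49, 3.97, 2.90 and 3.25 over the 4 combination times, 4.24, 3.87 and 3.41 over the 3 quinacrine times, 3.98, 4.51, 4.15 and 3.79 over the 4 erlotinib times, and 3.77 in untreated cells. Its lowest values were also at 24 and 48 h of the combination and 24 h of quinacrine. Smaller differences were measured for the partners of BOP1 in the PeBoW complex. PES1 differed by -0.16 between the combination and erlotinib (SE 0.15, limma adjusted p = 0.592), and WDR12 by -0.08 (SE 0.10, limma adjusted p = 0.695).

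**Figure D2:**
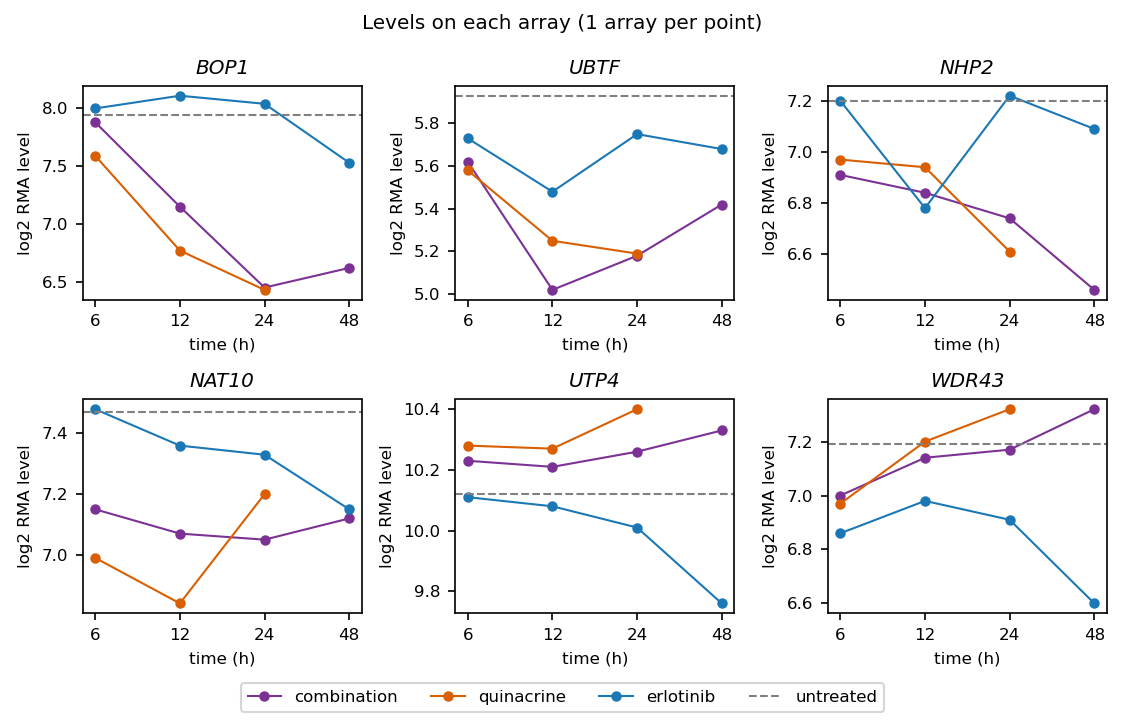
Log2 RMA level (vertical axis) against time in h (horizontal axis, log scale) for BOP1, UBTF, NHP2, NAT10, UTP4 and WDR43, with 1 array per point and the untreated array as a dashed line. In the BOP1 panel the combination ends at 6.62 and erlotinib at 7.53, and in the UTP4 panel every combination and quinacrine point is above 10.12, the untreated level.

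No tested member passed the threshold between the combination and erlotinib. The count was 0 of 34 by limma, where 3.64% of all tested genes passed. At an unadjusted p under 0.05 there were 6 of 34, where 20.8% of all tested genes were. The median difference of the 34 genes was -0.02, and that of all tested genes was -0.03. Quinacrine against erlotinib also gave 0 of 34 by limma, where 1.13% of all tested genes passed. At an unadjusted p under 0.05 there were 5 of 34, where 17.6% of all tested genes were, and the median differences were -0.01 for the members and 0.01 for all tested genes.

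The combination against quinacrine gave 0 of 34 by limma, where 0% of all tested genes passed, and 0 at an unadjusted p under 0.05, where 0.808% of all tested genes were. The differences ran between -0.17 for UTP20 and 0.23 for BOP1, whose 95% interval was -0.31 to 0.76. The smallest p belonged to NOB1, the nuclease that trims the small subunit's RNA, at 0.13 (SE 0.12), to RRP12 at 0.18 (SE 0.17) and to NIP7 at 0.14 (SE 0.14), each with a limma adjusted p of 1. The median member's 95% interval reached 0.327 to either side of its difference. A p above the threshold does not show that the 2 treatments act alike on these genes.

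**Figure D3:**
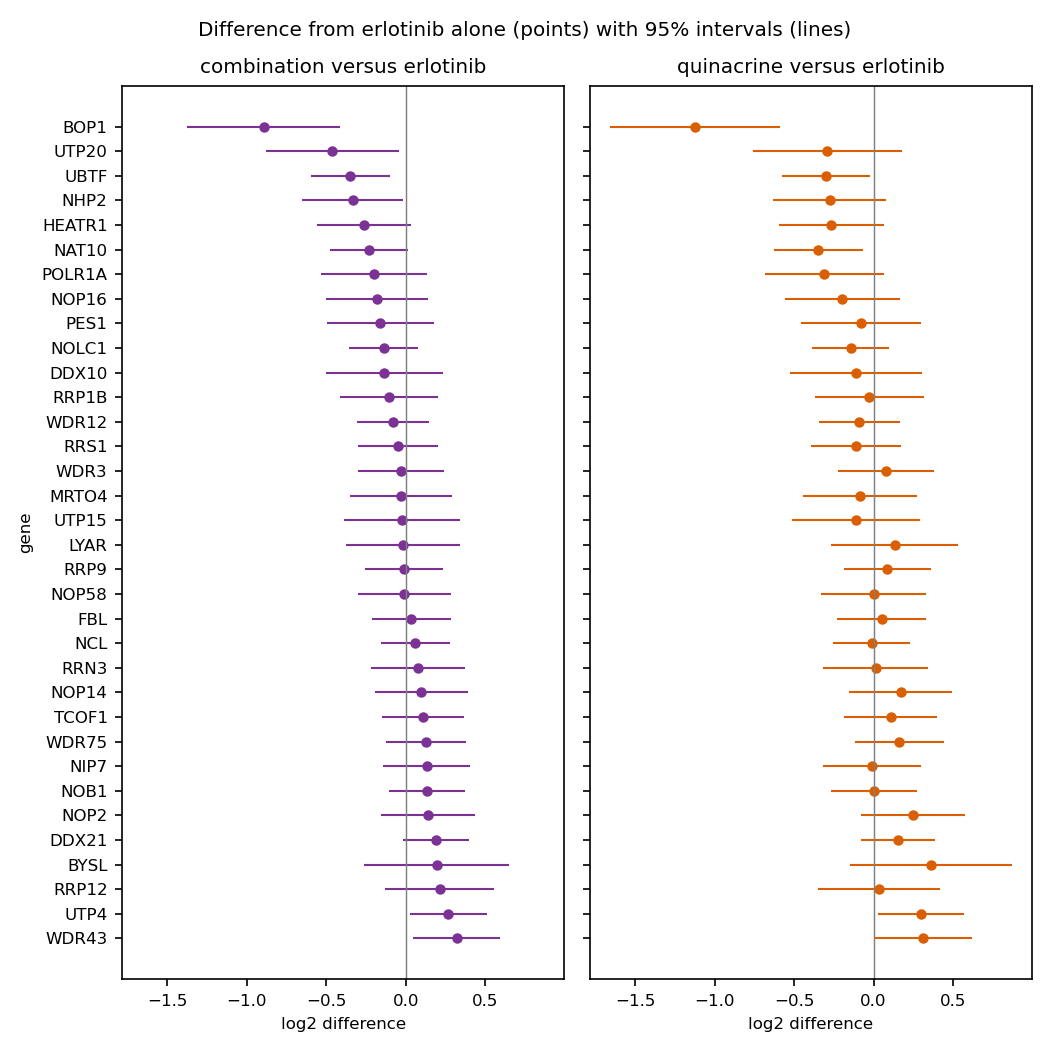
Log2 difference of the combination minus erlotinib and of quinacrine minus erlotinib (horizontal axes) for the 34 tested members (rows), with 95% intervals as lines. BOP1 stands apart at -0.90 and -1.12, and the other 33 members lie between -0.46 and 0.36 in these comparisons.

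Of the RNA polymerase I factors, UBTF, the HMG-box protein that binds the ribosomal RNA genes and keeps them open to transcription, had the lowest difference between the combination and erlotinib. UBTF read 5.62, 5.02, 5.18 and 5.42 over the 4 combination times, 5.58, 5.25 and 5.19 over the 3 quinacrine times, 5.73, 5.48, 5.75 and 5.68 over the 4 erlotinib times, and 5.93 in untreated cells. The difference of UBTF was -0.35 between the combination and erlotinib (SE 0.11, limma adjusted p = 0.122) and -0.30 between quinacrine and erlotinib (SE 0.12, limma adjusted p = 0.253). Every treated array of UBTF lay below the untreated array, but the combination 6 h array lay above the lowest erlotinib array, so these groups overlapped.

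TCOF1, the treacle protein that supports RNA polymerase I transcription, had the highest difference of this role, 0.11 (SE 0.11, limma adjusted p = 0.653). RRN3 joins RNA polymerase I to its promoter, and its difference between the combination and erlotinib was 0.08 (SE 0.13, limma adjusted p = 0.794). POLR1A encodes the largest subunit of RNA polymerase I. It read 6.43, 6.52, 6.72 and 6.98 over the 4 combination times, 6.22, 6.49 and 6.83 over the 3 quinacrine times, 6.95, 6.91, 6.80 and 6.79 over the 4 erlotinib times, and 7.16 in untreated cells.

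The lowest POLR1A values were at 6 h of quinacrine and of the combination, and they lay higher at each later time of both groups. The POLR1A slope per doubling of time was 0.19 in the combination (SE 0.05, limma adjusted p = 0.0692) and 0.31 in quinacrine (SE 0.08, limma adjusted p = 0.229), and neither passed. The second row of POLR1A disagreed: it read 6.53, 5.85, 6.42 and 6.49 over the combination times, 5.34, 5.78 and 6.37 over the quinacrine times, 5.67, 5.17, 6.24 and 6.49 over the erlotinib times, and 5.02 in untreated cells. On that row every treated array lay above the untreated one, against below it on the first row, so the direction of POLR1A relative to untreated cells depends on the row.

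Of the box C/D proteins, FBL, the methyltransferase of ribosomal RNA, differed by 0.04 between the combination and erlotinib (SE 0.11), and NOP58, a core protein of the same particles, by -0.01 (SE 0.13). Neither passed, with limma adjusted p of 0.898 for FBL and 0.977 for NOP58. The sign of NOP58 turned under both other scalings of the arrays. FBL read 8.25, 8.43, 8.40 and 8.01 over the combination times, 8.44, 8.28 and 8.33 over the quinacrine times, 8.38, 8.35, 8.08 and 8.14 over the erlotinib times, and 8.17 in untreated cells, with all groups overlapping.

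NHP2 is a core protein of the box H/ACA particles, which guide pseudouridine formation, and it had the lowest difference of that role. NHP2 read 6.91, 6.84, 6.74 and 6.46 over the combination times, 6.97, 6.94 and 6.61 over the quinacrine times, 7.20, 6.78, 7.22 and 7.09 over the erlotinib times, and 7.20 in untreated cells. The NHP2 difference was -0.34 between the combination and erlotinib (SE 0.14, limma adjusted p = 0.219), and the erlotinib 12 h array lay inside the combination range. The NHP2 slope in the combination was -0.15 per doubling of time (SE 0.08, limma adjusted p = 0.259). NOLC1, a chaperone of small nucleolar ribonucleoproteins, differed by -0.14 (SE 0.10, limma adjusted p = 0.455).

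Nucleolin, NCL, which binds the precursor RNA, differed by 0.06 between the combination and erlotinib (SE 0.09, limma adjusted p = 0.771). Nucleophosmin, NPM1, the other granule protein, was not tested. NPM1 read 3.00 to 3.10 in the combination, 2.75 to 3.05 in quinacrine, 3.06 to 3.38 in erlotinib and 3.23 in untreated cells. Its row lay below the filter level on every array, but above the array medians over all rows, which ran from 1.39 to 1.64. GAR1 read between 3.23 and 4.22 in the combination and 4.22 in untreated cells.

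Among the small-subunit factors, UTP4 and WDR43 lay higher in the combination than in erlotinib, and their arrays did not overlap. Both belong to the early complex that binds the 5′ part of the precursor. Of the 15 tested small-subunit members, 7 differences lay above 0 and 8 below. The early factors HEATR1 (-0.26) and UTP15 (-0.025) were among those below. UTP4 and WDR43 were 2 of 34 members that lay higher without overlap, where 4% of all tested genes did. In the other direction there were 0 of 34, where 7.94% of all tested genes were. UTP4 read 10.23, 10.21, 10.26 and 10.33 over the combination times, 10.28, 10.27 and 10.40 over the quinacrine times, 10.11, 10.08, 10.01 and 9.76 over the erlotinib times, and 10.12 in untreated cells. All 7 arrays with quinacrine lay above the untreated UTP4 level, and all 4 erlotinib arrays lay below it.

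The UTP4 difference was 0.27 between the combination and erlotinib (SE 0.11, limma adjusted p = 0.203) and 0.30 between quinacrine and erlotinib (SE 0.12, limma adjusted p = 0.235). WDR43 read 7.0, 7.14, 7.17 and 7.32 over the combination times, 6.97, 7.20 and 7.32 over the quinacrine times, 6.86, 6.98, 6.91 and 6.60 over the erlotinib times, and 7.19 in untreated cells. All 4 erlotinib arrays of WDR43 were below the untreated level, by 0.59 at 48 h, as were the combination arrays at 6, 12 and 24 h and the quinacrine array at 6 h. The WDR43 difference between the combination and erlotinib was 0.32 (SE 0.12, limma adjusted p = 0.181), which did not pass.

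UTP20, a scaffold of the small-subunit processome, had the lowest difference of its role. UTP20 read 5.00, 5.63, 5.61 and 5.48 over the combination times, 5.61, 5.62 and 5.61 over the quinacrine times, 6.27, 5.63, 5.89 and 5.78 over the erlotinib times, and 5.79 in untreated cells. Its difference between the combination and erlotinib was -0.46 (SE 0.18, limma adjusted p = 0.205), and 1.27 of distance between the 6 h arrays carried most of it. UTP20 was 1 of 34 members below erlotinib without overlap in quinacrine, where 10.1% of all tested genes were, and UTP4 was the 1 above it, where 9.33% were.

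NAT10, which acetylates the RNA of the small subunit, read 7.15, 7.07, 7.05 and 7.12 over the combination times, 6.99, 6.84 and 7.20 over the quinacrine times, 7.48, 7.36, 7.33 and 7.15 over the erlotinib times, and 7.47 in untreated cells. The NAT10 difference was -0.23 between the combination and erlotinib (SE 0.11, limma adjusted p = 0.268) and -0.35 between quinacrine and erlotinib (SE 0.12, limma adjusted p = 0.189). At 48 h the combination and erlotinib arrays of NAT10 were 0.03 apart. HEATR1, another early small-subunit factor, differed by -0.26 between the combination and erlotinib (SE 0.13, limma adjusted p = 0.298).

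In the large subunit, the member opposite to BOP1 was DDX21, an RNA helicase of the nucleolus, with a difference of 0.19 between the combination and erlotinib (SE 0.09, limma adjusted p = 0.284). DDX21 read 8.17, 8.36, 8.06 and 8.19 over the combination times, 8.14, 8.23 and 8.16 over the quinacrine times, 8.06, 8.18, 7.87 and 7.91 over the erlotinib times, and 8.0 in untreated cells. Its groups overlapped. The median over the 10 tested large-subunit members was -0.07, and the median over the 15 small-subunit members was -0.02.

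The promoters of the 4 members with the smallest p between the combination and erlotinib after BOP1, which is named only, are printed here to show the letters around their starts. The windows are from RefSeq (GRCh38.p14) and run 5′ to 3′ along the gene, from 250 bases before a start to 50 after it. They are chr17:44220833-44221132 on the minus strand for UBTF, and, on the plus strand, chr2:28894417-28894716 for WDR43, chr16:69132399-69132698 for UTP4 and chr12:101279855-101280154 for UTP20. The UBTF window lies inside the annotated span of its gene, 44205040 to 44221304, so it belongs to a start within the gene and not to its outermost start. Capitals mark CACGTG, the letters that MYC and related factors are known to bind, which read the same on both strands and were searched with no other motif.
UBTF: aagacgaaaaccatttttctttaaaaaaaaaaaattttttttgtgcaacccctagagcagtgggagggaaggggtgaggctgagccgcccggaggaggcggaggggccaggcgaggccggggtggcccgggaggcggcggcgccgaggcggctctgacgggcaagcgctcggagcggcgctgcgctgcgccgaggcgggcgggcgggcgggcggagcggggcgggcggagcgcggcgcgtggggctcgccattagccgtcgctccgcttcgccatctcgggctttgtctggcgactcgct
WDR43: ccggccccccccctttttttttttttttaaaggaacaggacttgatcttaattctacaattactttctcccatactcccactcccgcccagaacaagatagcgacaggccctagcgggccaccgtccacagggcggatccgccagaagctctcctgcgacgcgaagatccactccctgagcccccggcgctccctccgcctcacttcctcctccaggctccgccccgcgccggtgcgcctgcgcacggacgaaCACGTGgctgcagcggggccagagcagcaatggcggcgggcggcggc
UTP4: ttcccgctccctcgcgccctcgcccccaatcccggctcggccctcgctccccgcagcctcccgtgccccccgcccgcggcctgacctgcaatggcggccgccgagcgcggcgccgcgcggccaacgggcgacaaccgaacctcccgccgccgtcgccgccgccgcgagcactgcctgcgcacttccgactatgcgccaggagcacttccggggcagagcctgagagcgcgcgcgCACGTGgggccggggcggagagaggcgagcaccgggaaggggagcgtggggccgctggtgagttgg
UTP20: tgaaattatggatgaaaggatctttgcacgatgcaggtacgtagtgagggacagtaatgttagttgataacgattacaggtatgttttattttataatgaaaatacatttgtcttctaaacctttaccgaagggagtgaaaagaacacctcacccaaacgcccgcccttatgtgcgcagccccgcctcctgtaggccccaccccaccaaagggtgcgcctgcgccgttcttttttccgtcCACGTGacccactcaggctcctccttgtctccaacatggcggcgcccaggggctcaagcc
The motif starts at base 4 after the start of WDR43, 16 bases before the start of UTP4 and 10 bases before that of UTP20, and these letters are not in the UBTF window. Windows were held for 35 of the 42 listed genes, and 15 of those 35 genes (42.9%) had the motif in at least 1 window. The same letters were in 8.77% of the 27305 genes with a window and in 13.5% of the 4805 tested genes with one. By window, 34.1% of the members' 44 windows held the motif, against 10.4% of the 6677 windows of tested genes and 7.26% of all 35116 windows. A match describes the letters and is not a binding site, and BYSL, FBL, MRTO4, NAT10, NOP14, NOP2, PES1 and RRP9 were among the other members with a match.

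MYC was read on the same arrays. It differed by -0.01 between the combination and erlotinib (SE 0.14, limma adjusted p = 0.985) and by -0.15 between quinacrine and erlotinib (SE 0.16, limma adjusted p = 0.672). Between the combination and quinacrine it differed by 0.14 (SE 0.16). Against the untreated array, MYC differed by -0.31 in the combination, by -0.45 in quinacrine and by -0.30 in erlotinib, with limma adjusted p of 0.648, 0.494 and 0.999. The MYC slope per doubling of time was 0.13 in the combination, -0.04 in quinacrine and -0.13 in erlotinib, with limma adjusted p of 0.261, 0.954 and 0.702. The difference of the MYC slopes, combination minus erlotinib, was 0.26 (SE 0.10, limma adjusted p = 0.266). None of these slopes passed. Of 6 tested genes of the MYC network, 0 passed between the combination and erlotinib or between quinacrine and erlotinib. Of all tested genes, 3.64% and 1.13% passed there, so a count of 0 among 6 says little about the network.

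Against the single untreated array, few tested genes of any kind passed. In this fit the lone array was assumed to vary like the treated groups, and change over time counted as spread. In the combination 0 of 34 members passed by limma, where 0.0515% of all tested genes passed. At an unadjusted p under 0.05 there were 3 of 34, where 11.2% of all tested genes were. These 3 were UBTF at -0.62 (SE 0.22, limma adjusted p = 0.361), NOP16, a large-subunit assembly protein, at -0.49 (SE 0.21, limma adjusted p = 0.415), and NAT10 at -0.37 (SE 0.16, limma adjusted p = 0.434). BOP1 differed by -0.92 (SE 0.50, limma adjusted p = 0.548).

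In quinacrine 0 of 34 passed by limma, where 0.0344% of all tested genes passed. At an unadjusted p under 0.05 there were 4 of 34, where 10.3% of all tested genes were. NAT10 differed by -0.46 (SE 0.17, limma adjusted p = 0.380), POLR1A by -0.65 (SE 0.24, limma adjusted p = 0.391) and UBTF by -0.59 (SE 0.23, limma adjusted p = 0.417). With the mean of its rows POLR1A differed by 0.08 instead. In erlotinib 0 of 34 passed by limma, where 0% of all tested genes passed, and 0 had an unadjusted p under 0.05, where 2.47% of all tested genes had. RRN3 differed by -0.43 (SE 0.20), WDR43 by -0.35 (SE 0.19) and NOP16 by -0.31 (SE 0.21), each with a limma adjusted p of 0.999.

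The untreated array is shared by these 3 comparisons. The median difference from it over the 34 members was -0.10 in the combination, -0.09 in quinacrine and -0.12 in erlotinib. Over all tested genes the medians were -0.01, 0.02 and 0.02. The members' medians lay below those of all tested genes in each group, with no test of that distance.

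Time separated the arrays further. At 48 h of erlotinib, 33 of the 34 members (97.1%) were below the untreated array, where 40.9% of all tested genes were. The members' median was -0.30, against 0.06 for all tested genes, and 4 members were at least 0.5 lower, where 4.62% of all tested genes were. NOP14, a small-subunit factor, was the exception at 0.45 above. This is 1 array against 1 array, with no test. On the same array the lung lineage marker NKX2-1 was 1.20 above its untreated level, and at 48 h of the combination it was 0.01 above. Its part in the members' values was not tested.

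The 10 tested large-subunit members were all below untreated at 48 h of erlotinib, with a median of -0.34. The 4 RNA polymerase I members were all below it, with a median of -0.33, and 14 of the 15 small-subunit members were, with a median of -0.30. NIP7, a large-subunit factor, read 9.05, 8.90, 8.68 and 8.49 over the 4 erlotinib times, against 9.03 in untreated cells. RRP12, known in yeast to take part in the export of ribosomal subunits, read 7.87, 7.67, 7.80 and 7.34 over the erlotinib times, against 7.97 in untreated cells.

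At earlier times the same comparison was weaker. The members' median difference from untreated was 0.02 at 6 h of erlotinib, -0.05 at 12 h and -0.14 at 24 h, with 15, 21 and 23 of 34 members below, where 35.6%, 59.4% and 45.2% of all tested genes were. The erlotinib slopes ran the same way: 31 of 34 were below 0, where 47.8% of all tested genes were. Their median was -0.10 per doubling of time, against 0.01 for all tested genes. None passed by limma, where 0.0344% of all tested genes passed. At an unadjusted p under 0.05 there were 4 of 34 erlotinib slopes, where 8.02% of all tested genes were.

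The lowest erlotinib slopes were those of UTP15, an early small-subunit factor, at -0.21 (SE 0.07, limma adjusted p = 0.455), NIP7 at -0.19 (SE 0.06, limma adjusted p = 0.436) and PES1 at -0.16 (SE 0.07, limma adjusted p = 0.579). The highest were NOP14 and UBTF at 0.01 each and NHP2 at 0.01, all with limma adjusted p of 0.989, and each of these 3 turned below 0 under median centring of the arrays. UTP15 read 6.75, 6.74, 6.27 and 6.20 over the erlotinib times, against 6.53 in untreated cells. Without the erlotinib 48 h array, 25 of the 34 erlotinib slopes were below 0. The share of all tested genes below 0 was not counted without that array.

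**Figure D4:**
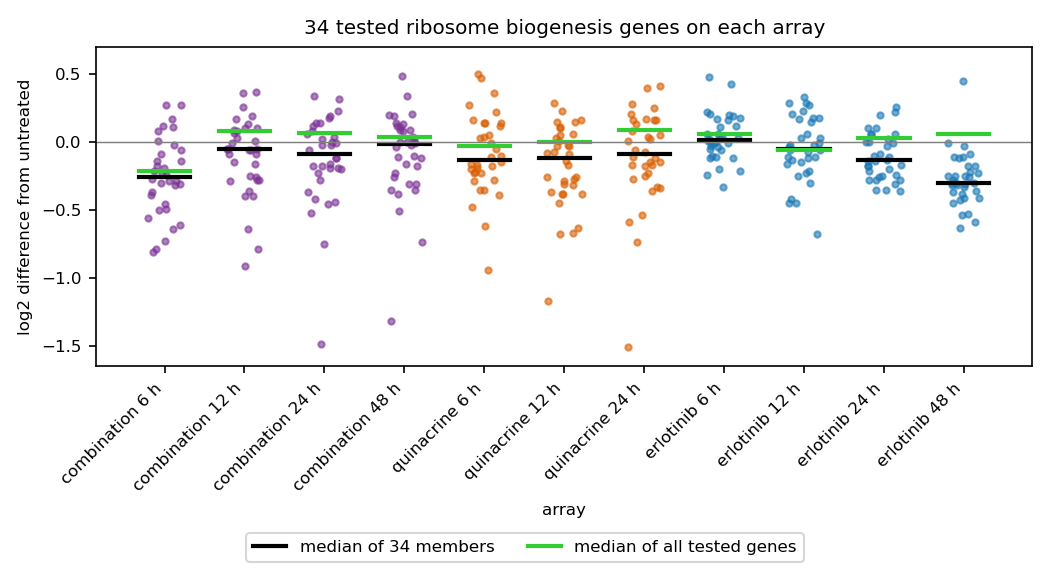
Difference from the untreated array (log2 scale, vertical axis) of the 34 tested members on each treated array (1 point per gene), with the members' median and the median of all tested genes marked. At 48 h of erlotinib the members' median is -0.30 and that of all tested genes 0.06, while at 48 h of the combination they are -0.02 and 0.04.

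At 48 h of the combination the members were spread around the untreated array, 14 above and 18 below, with a median of -0.02, where 55.1% of all tested genes were above and 43.9% below. Against erlotinib at 48 h, 26 of 34 members were higher in the combination, where 46.7% of all tested genes were, with a median of 0.25 for the members and -0.02 for all tested genes. RRP12 read 8.06 in the combination and 7.34 in erlotinib at 48 h. BOP1 and NHP2 were at least 0.5 lower there, with NHP2 at 6.46 in the combination and 7.09 in erlotinib. These were 2 of 34 members, where 529 of all 5820 tested genes were at least 0.5 lower. At least 0.5 higher were 5 of 34 members, where 525 of all 5820 tested genes were.

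At 6 h the order was the other one, with 29 of 34 members lower in the combination than in erlotinib, where 78.4% of all tested genes were. The members' median was -0.27 and that of all tested genes -0.27. Centring each array on its median shifted the median of all tested genes at 6 h to 0.08, and 12 of 34 members were then lower. The medians of the 48 h arrays are equal, so centring changes nothing there.

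The slopes of the combination and erlotinib differed by a median of 0.15 per doubling of time over the members, against 0.07 over all tested genes. The difference was above 0 for 31 of 34 members, where 68.7% of all tested genes were above 0. None passed by limma, where 0.103% of all tested genes passed. At an unadjusted p under 0.05 there were 8 of 34, where 15.2% of all tested genes were. The highest were BYSL, a factor of the small subunit, at 0.34 (SE 0.13, limma adjusted p = 0.270), RRP12 at 0.29 (SE 0.10, limma adjusted p = 0.243) and DDX10, an RNA helicase, at 0.28 (SE 0.12, limma adjusted p = 0.332). The smallest p belonged to HEATR1 at 0.26 (SE 0.08) and POLR1A at 0.24 (SE 0.07), each with a limma adjusted p of 0.198, and with the mean of its rows POLR1A was at -0.03. The exceptions were BOP1 at -0.30, NHP2 at -0.16 (SE 0.11, limma adjusted p = 0.519) and UBTF at -0.06 (SE 0.13, limma adjusted p = 0.865), and UBTF turned above 0 without the combination 6 h array, at 0.19.

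Within the combination the members' median slope was 0.04, against 0.08 over all tested genes. Beside BOP1, the lowest slopes there were NHP2, above, and FBL at -0.08 (SE 0.07, limma adjusted p = 0.528). The highest were BYSL at 0.24 (SE 0.09, limma adjusted p = 0.136), POLR1A, above, and DDX10 at 0.18 (SE 0.09, limma adjusted p = 0.234). BYSL read 5.40, 6.13, 6.28 and 6.16 over the combination times, and without the 6 h array its slope was 0.015. In quinacrine 0 of 34 slopes passed by limma, where 0% of all tested genes passed, and 2 had an unadjusted p under 0.05, where 10.6% of all tested genes had. The lowest quinacrine slopes after BOP1 were UBTF at -0.20 (SE 0.14, limma adjusted p = 0.706) and NHP2 at -0.18 (SE 0.12, limma adjusted p = 0.668), and the highest after POLR1A were WDR43 at 0.18 (SE 0.10, limma adjusted p = 0.583) and WDR75 (SE 0.09) and WDR12 (SE 0.10) at 0.13 each.

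**Figure D5:**
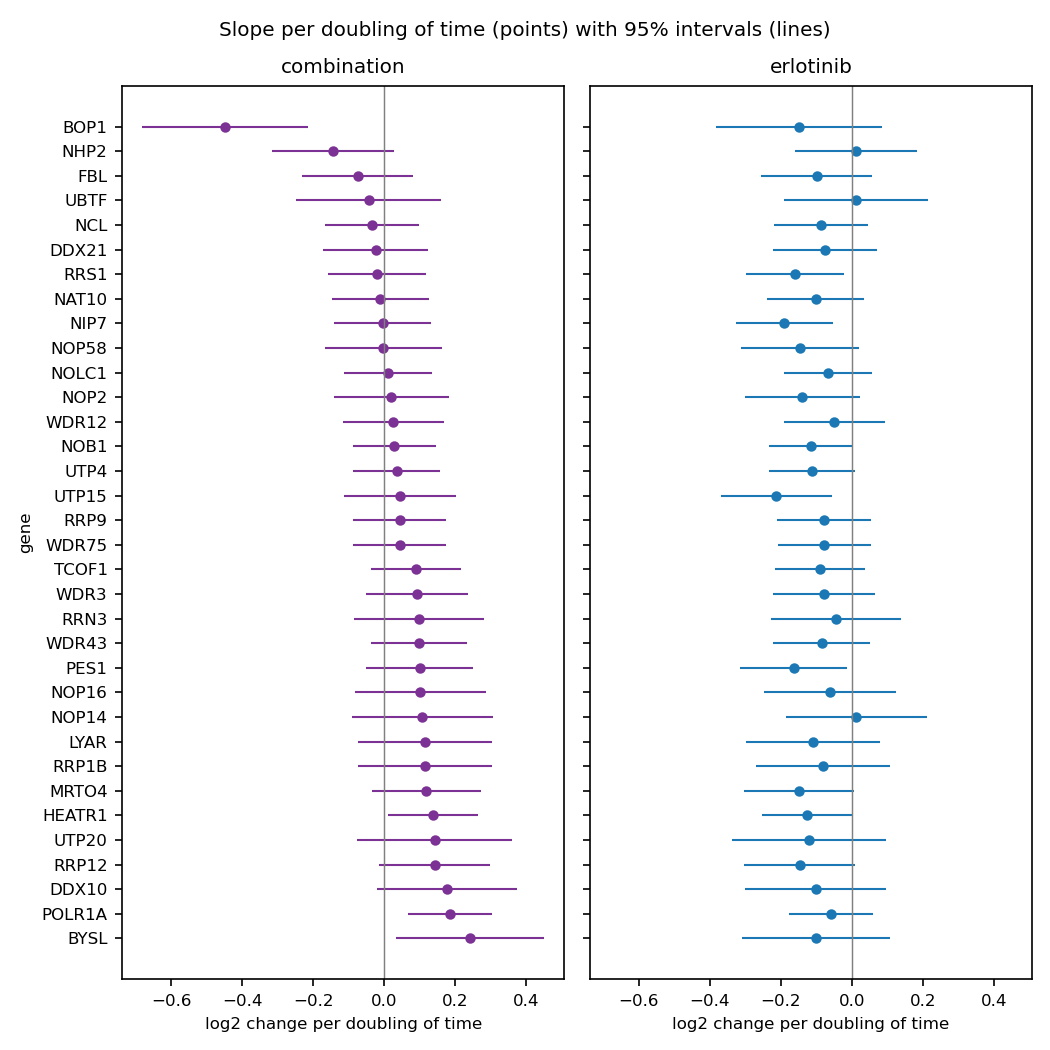
Slope per doubling of time (log2 scale, horizontal axes) of the 34 tested members (rows, by their slope in the combination) with 95% intervals as lines, for the combination (left) and erlotinib (right). BOP1 is lowest in the combination at -0.45, and 31 of 34 erlotinib slopes are below 0, against 47.8% of all tested genes.

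Other genes of the pathway were set beside the members from lists of other ribosome assembly factors, other RNA polymerase I factors, RNA polymerase III, the RNA exosome and cytosolic ribosomal proteins. Between the combination and erlotinib, where 3.64% of all tested genes passed, 1 of 55 tested other assembly factors did: URB2, known in yeast as an assembly factor of the large subunit, fell by 0.64 (SE 0.14, limma adjusted p = 0.0479). Of 18 tested RNA polymerase III genes 1 passed: GTF3C4, a subunit of the factor TFIIIC, rose by 0.46 (SE 0.10, limma adjusted p = 0.0436). None of 30 cytosolic ribosomal protein genes, 10 exosome genes or 6 other RNA polymerase I factors passed. Many ribosomal protein genes have near-identical pseudogenes, so their rows are less certain.

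Within the combination, 4 genes of these lists had a slope that passed, and each was upward. They were BRF1, a subunit of the RNA polymerase III factor TFIIIB, at 0.69 (SE 0.12, limma adjusted p = 0.0234), LTV1, an assembly factor of the small subunit, at 0.43 (SE 0.10, limma adjusted p = 0.0442), RPS15A, a small-subunit protein, at 0.43 (SE 0.10, limma adjusted p = 0.0442), and EXOSC9, an exosome subunit, at 0.40 (SE 0.10, limma adjusted p = 0.0469). Each list gave 1 such gene, of 18, 55, 30 and 10 tested, where 4.97% of all tested genes passed in either direction.

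The same lists were counted at 48 h of erlotinib, where 40.9% of all tested genes lay below the untreated array. Below the untreated array were 45 of 55 other assembly factors (median -0.17), 8 of 10 exosome genes (-0.10), 5 of 6 other RNA polymerase I factors (-0.17), 21 of 30 cytosolic ribosomal protein genes (-0.06) and 7 of 18 RNA polymerase III genes (0.04). In the combination against erlotinib at 48 h, 46.7% of all tested genes were higher. So were 46 of 55 other assembly factors (median 0.20), 10 of 10 exosome genes (0.18) and 5 of 6 other RNA polymerase I factors (0.15). The counts were 12 of 18 for RNA polymerase III genes (0.115) and 16 of 30 for cytosolic ribosomal protein genes (0.03). These are counts on single arrays, with no test.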

How the data were processed

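RNA of NCI-H1975 cells was read on 12 arrays (Affymetrix Human Gene ST 2.1) as log2 expression levels. The authors deposited these log2 values after RMA (background correction, quantile normalization and a log2 step) in Affymetrix Expression Console 1.30 with hg19 probe set files, per the series' design text and the submitters' processing notes. Values were used as deposited. All columns matched a sample. The table's 53617 rows held 23871 with 1 gene symbol, 1842 with several and 27904 with none in the platform annotation.

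Genes with a mean of at least 5 were tested with limma 3.58.1 in R 4.3.3 (lmFit and eBayes), and p-values were adjusted by Benjamini-Hochberg over all 5820 tested genes, with a threshold of 0.05. A gene low without treatment could pass this filter through treated arrays. Treated groups were compared with treatment and time as factors, slopes were fitted on log2 hours, and group means were set against the untreated array. The steps were tested on simulated data. Quantile normalization is named in the notes, but the deposited arrays do not share a single distribution. The interquartile range over all rows ran from 2.04 to 2.88. Levels are relative to all rows of an array, and differences of scale between arrays remain in the values. Arrays have no read depth, and their number limits the precision. Differences are within a row. Levels of different rows are on no common scale.

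All 42 listed genes could be named. Values are given in full for members past the threshold or, where none passed, the 3 with the smallest p in a comparison of groups, for the 3 steepest each way among slopes, and for the highest and lowest combination minus erlotinib difference of each role. MYC is always given, and genes of other lists only where they passed. The members and lists were chosen with earlier results of these data known. Other filters, rows, scalings, weights, arrays and time terms were tried.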

Additional observations from a re-analysis of the deposited data

Results flagged for a closer look

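At 6 h of the combination, 3 members lay far below the other combination arrays, relative to the range of their group. RRP1B read 6.50, against 6.89 to 6.97 at the later times, DDX10 read 4.61, against 5.13 to 5.21, and BYSL read 5.40, against 6.13 to 6.28. They were 3 of 68 groups of 4 arrays examined, with each member's combination and erlotinib arrays as separate groups. All 3 were combination groups. The cutoff flags about 1 in 20 groups of independent values with a single spread. Arrays of a group were of different times, so that rate need not hold here. The rule was not counted over all tested genes. The combination 6 h array had a median of 6.18 over the tested genes, the lowest of the 12, and its part in these values was not tested.

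UTP4 lay above the untreated level on all arrays of the combination (mean difference 0.14) and below it on all arrays of erlotinib (-0.13), a distance of 0.268. It also lay above it on all quinacrine arrays (0.20), a distance of 0.327 from erlotinib. The difference between these differences was not tested in itself. Opposite sides of this kind were found for 1.7% of all tested genes in the first pair of groups and for 2.78% in the second.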

How the results depend on the processing

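Over the alternative settings, 232 counts of members kept their value to within 1.5 times or stayed at 0, 15 went up and 15 went down. For single genes, 1253 values kept direction and side of the threshold, 19 passed anew, 15 no longer passed and 44 turned sign. Between the combination and erlotinib 1 member passed in place of 0 with array weights and with a prior trend (both BOP1). There 380 and 311 of all tested genes passed, against 212 in the main fit. Without both arrays of smallest spread, combination 6 h and erlotinib 12 h, 1 member passed (BYSL), where 168 of all tested genes did. With 1 array left out 0 to 1 passed. The 1 was reached without erlotinib 6 h and without combination 6 h, where 322 and 294 of all tested genes passed. Between quinacrine and erlotinib 1 passed with cyclic loess, median centring, array weights and a prior trend. There 318, 293, 682 and 178 of all tested genes passed, against 66 in the main fit. With 1 array left out 0 to 1 passed. The 1 was reached without erlotinib 6 h and without combination 6 h, where 257 and 288 of all tested genes passed. With array weights 5 passed in the combination and 3 in quinacrine against untreated, and 2 quinacrine slopes passed; that fit, which did not converge fully, called 809 and 494 of all tested genes against untreated. For quinacrine slopes, 279 of all tested genes passed with array weights, against 0 in the main fit. The combination slope count of 1 became 0 with no filter, a mean of at least 4, the mean of rows and array weights. It also became 0 with both arrays left out, 6 to 24 h only and time in hours. It became 2 with median centring (BOP1 and NHP2), where 446 of all tested genes passed, against 289 in the main fit. With 1 array left out it was 0 to 1.

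Sign changes were as follows. With the mean of rows, POLR1A was 0.0817 for quinacrine against untreated and -0.032 for the slope difference. NOP58, combination against erlotinib, was 0.0022 with cyclic loess, 0.0237 with centring, 0.0878 with weights and 0.144 without both arrays, and MYC was 8e-04, 0.0262, 0.0535 and 0.152 there. Erlotinib slopes of UBTF were -0.0025 with loess, -0.0045 with centring and -0.0129 without both arrays. Those of NOP14 were -0.0035 with centring, -0.0207 without both arrays and -0.185 over 6 to 24 h, and those of NHP2 were -0.0055 and -0.03. The UBTF slope difference was 0.129 with weights and 0.213 without both arrays. Over 6 to 24 h, NCL was -0.0033 and the FBL combination slope 0.075. With one array left out, the combination against erlotinib ran -0.118 to 0.0997 for NOP58, -0.197 to 0.0829 for MYC, -0.0477 to 0.0929 for FBL, -0.0033 to 0.105 for NCL, and the erlotinib slope -0.185 to 0.23 for NOP14, -0.0129 to 0.1 for UBTF, -0.03 to 0.155 for NHP2. The MYC quinacrine slope ran -0.26 to 0.18, the UBTF slope difference -0.232 to 0.188 and the FBL combination slope -0.21 to 0.075. The erlotinib slopes below 0 numbered 25 to 34, and the slope differences above 0 numbered 25 to 35. Members below untreated at 48 h of erlotinib numbered 32 to 35, and those above erlotinib at 48 h of the combination 26 to 28. With no filter and with a mean of at least 4, 38 and 37 members were tested in place of 34. Shares of all tested genes under these settings are not given here. The causes were not tested. The labels carry no replicate numbers, and arrays were matched by time through the time term. Without that term the counts of members called between treatments stayed at 0. Each condition had 1 array, so no comparison at a single time has an error, and a probe row sums the transcripts it reads.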

Other observations

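In the neighbourhood of BOP1, chosen after its values were seen, 11 other tested genes lie within 600 kb in the RefSeq annotation. Of these, 9 had a negative difference between the combination and erlotinib and 8 between quinacrine and erlotinib, where 55.2% and 47.5% of all tested genes had. In each comparison 1 of the 11 passed, where 3.64% and 1.13% of all tested genes passed. FAM83H, whose protein is linked to keratin filaments, fell by 1.74 (limma adjusted p = 0.0227) in the combination and fell by 1.81 (limma adjusted p = 0.0396) in quinacrine, each against erlotinib. HSF1, the nearest tested neighbour, differed by -0.13 (limma adjusted p = 0.565) in the combination and by -0.36 (limma adjusted p = 0.174) in quinacrine.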
